A study of Mus musculus with 12 samples.

Results

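Chac1, Gclc, Gclm, Gss, Gsr, Nfe2l2, Nqo1, Txnrd1, Srxn1 and Hmox1 are 10 genes of glutathione turnover and of the antioxidant response that the transcription factor NRF2 directs. They were picked by name, as each locus whose gene field holds the symbol. All 10 were found, each at 1 locus that carries that name alone, among 27109 loci of which 23951 are named. Transcript levels were measured by sequencing poly(A) RNA of whole mouse liver, with 3 libraries in each of 4 groups. The groups were LsATF4-KO mice given tunicamycin, wild-type mice given tunicamycin, LsATF4-KO mice given DMSO and wild-type mice given DMSO. All mice were C57BL/6, the dose was 1 mg/kg tunicamycin or 0.3% DMSO by intraperitoneal injection, and livers were taken after 6 h. LsATF4-KO mice (genotype LsATF4-/-) are labelled as knockouts of Atf4, the gene of a stress-induced transcription factor. Tunicamycin blocks N-linked glycosylation and so causes stress of the endoplasmic reticulum (ER). The sources used here do not give the age or sex of the mice, the promoter that drives the deletion or the alleles of the wild-type mice.

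Glutathione is made from glutamate, cysteine and glycine. Glutamate-cysteine ligase, built from the catalytic subunit Gclc and the modifier subunit Gclm, sets the rate, and glutathione synthetase, Gss, adds glycine. CHAC1 cleaves glutathione in the cytosol and is a known target of ATF4 and its partner factors. Glutathione reductase, Gsr, regenerates the reduced form with NADPH. NRF2, encoded by Nfe2l2, is held low by KEAP1 and under oxidative or electrophilic stress binds antioxidant response elements of genes such as Gclc, Gclm, Nqo1, Txnrd1, Srxn1 and Hmox1. The liver is the main source of circulating glutathione.

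The promoters of Chac1, Srxn1 and Nqo1 are shown as places where these factors could act. With tunicamycin Chac1 and Srxn1 rose in both genotypes, and Nqo1 fell in both. Each window runs from 250 bases before the annotated start to 50 bases from it, taken from RefSeq on GRCm38.p6. In all, 7 of the 10 members had 9 windows, 3 of them of Txnrd1. Gclc, Gsr and Hmox1 were not among them. Capitals mark any match on either strand to the antioxidant response element core (TGACNNNGC or TGAGNNNGC), the AP-1 site (TGANTCA), the composite site of C/EBP and ATF factors (TGATGNAA) or the ER stress element (CCAAT and CCACG with 9 bases between them).
Chac1, chr2:119350992-119351291, plus strand: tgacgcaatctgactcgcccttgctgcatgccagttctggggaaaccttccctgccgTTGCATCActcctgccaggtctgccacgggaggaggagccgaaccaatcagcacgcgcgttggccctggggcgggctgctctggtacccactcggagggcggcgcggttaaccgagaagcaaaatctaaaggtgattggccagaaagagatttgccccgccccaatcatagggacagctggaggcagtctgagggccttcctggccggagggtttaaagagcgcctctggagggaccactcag
Srxn1, chr2:152105274-152105573, plus strand: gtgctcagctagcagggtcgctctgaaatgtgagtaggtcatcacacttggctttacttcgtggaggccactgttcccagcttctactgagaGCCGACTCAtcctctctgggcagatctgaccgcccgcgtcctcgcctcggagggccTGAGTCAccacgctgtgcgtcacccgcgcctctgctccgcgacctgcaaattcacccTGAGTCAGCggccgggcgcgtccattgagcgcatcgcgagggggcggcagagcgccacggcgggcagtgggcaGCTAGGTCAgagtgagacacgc
Nqo1, chr8:107403156-107403455, minus strand: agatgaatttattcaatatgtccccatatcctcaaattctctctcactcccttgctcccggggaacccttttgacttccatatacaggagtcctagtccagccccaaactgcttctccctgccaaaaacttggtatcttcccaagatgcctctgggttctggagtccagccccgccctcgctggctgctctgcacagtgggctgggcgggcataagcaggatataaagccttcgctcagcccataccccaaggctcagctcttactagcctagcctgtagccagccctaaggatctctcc

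The Chac1 window held 1 composite C/EBP and ATF match, 193 bases before the start and on the opposite strand, and such a match was present in 3.97% of all 32851 promoter windows. The Srxn1 window held 2 AP-1 matches, 102 and 45 bases before the start, and 7.81% of all windows held at least 1. The nearer of them overlaps a match to the second antioxidant core, which was found in 17.6% of windows, and a further match to that core lies 158 bases before the start. The first antioxidant core, present in 12.4% of windows, was matched in Srxn1 after the start and in the windows of Nfe2l2 and Gclm. It was also matched in 1 of the 3 windows of Txnrd1. None of the 5 motifs was matched in the Nqo1 or Gss window, and the ER stress element, held by 0.119% of windows, was matched in none of the 9 windows of the members. These are matches of letters only, and bases outside these windows were not searched.

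The authors' deposited table gives 1 FPKM per locus and group, that is fragments scaled to transcript length and to mapped reads, with the 3 libraries of a group pooled. No spread between libraries can therefore be shown, and library depths are unknown. A locus was called when the authors' deposited q was under 0.05 and its test was marked valid, and verbs of change are used of called loci. Standard errors (SE) and 95% intervals of log2 fold changes were derived from the deposited test statistics, scaled to the deposited p-values. The labels do not say that the 3 libraries of a group come from 3 mice, so the p-values measure only the spread between these libraries. Lane 5 carried the 3 libraries of LsATF4-KO with DMSO and lane 4 carried the remaining 9. In each comparison that uses LsATF4-KO with DMSO, the lane effect and the group effect cannot be told apart.

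The check of the knockout was limited, since Atf4 shares a merged locus with Cacna1i (mm9 chr15, 80085614 to 80228829), at 114 FPKM in LsATF4-KO and 356 in wild type with tunicamycin, and at 22.8 and 46.9 with DMSO, in the authors' deposited table. Hepatocyte markers were high, for example Apoa1 at 3320, 3759, 4353 and 5924 FPKM in the same order, while Alb is listed at 0 in all 4 groups with no valid test in the authors' deposited table. Summed FPKM over 12 adrenal marker loci was 1368 in LsATF4-KO with tunicamycin, against 23.6 in wild type with tunicamycin and 6.79 in LsATF4-KO with DMSO, from the authors' deposited table. Over 11 skeletal muscle markers the sums were 409, 6.01 and 2.14, and over 11 fat markers 315, 44.9 and 34.9, for the same groups of the authors' deposited table. None of these markers is listed at 0 in LsATF4-KO with tunicamycin. Against wild type with tunicamycin, 4 of 12 adrenal, 6 of 11 muscle and 5 of 10 tested fat loci were called higher. None was called lower, and over all tested loci 3.73% were higher. Large differences could go uncalled, as for the adrenal marker Star at 232 against 1.07 FPKM. The part of these markers in the results on LsATF4-KO with tunicamycin was not tested. In bulk liver, fewer cells of a type and less RNA per cell cannot be told apart.

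Under tunicamycin, LsATF4-KO livers had lower Chac1 and Hmox1 than wild-type livers, and none of the 10 members was higher. Those 2 calls of 10 stand beside 5.92% of all 14919 tested loci called in this comparison (3.73% higher and 2.19% lower) in the authors' deposited table. Chac1 was at 23.3% of its wild-type level and Hmox1 at 58.6%. The other 8 members had log2 differences between -0.18 and 0.43 and were not called, and 4 members in all had an unadjusted p under 0.05. All libraries of this comparison ran on lane 4. With FPKM rescaled to equal totals, Gss and Srxn1 were called higher in LsATF4-KO (q 0.0158 and 0.0226), and with equal upper quartiles Gss (q 0.0445).

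In wild-type livers tunicamycin raised Chac1, Srxn1 and Hmox1 and lowered Gclc, Gclm and Nqo1, 6 of 10 members, while the authors' deposited table calls 37.1% of its 14998 tested loci, 18.1% as higher and 19.0% as lower. In LsATF4-KO livers Chac1 and Srxn1 rose and Gclc, Gclm and Nqo1 fell, 5 of 10, where the authors' deposited table calls 33.0% of 15534 loci, 18.1% as higher and 14.8% as lower. The members' median log2 fold change was -0.16 in LsATF4-KO and -0.27 in wild type, against 0.01 and -0.02 over all loci tested. Counts of falls depended on scaling. With equal upper quartiles 5 members fell in wild type, Gsr and Nfe2l2 being added, and with equal totals Gclm was no longer called in either genotype while Gss was called higher in LsATF4-KO.

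With DMSO, 0 of 10 members were called between LsATF4-KO and wild type by Cuffdiff, against 2.86% of 14788 tested loci (1.39% higher, 1.47% lower) in the authors' deposited table. Nqo1 was the 1 member with an unadjusted p under 0.05 (0.0328, q 0.108). Log2 differences of the members ran from -0.55 (Nqo1) to 0.13 (Gclc), with a median of -0.11 against -0.07 over all loci tested, in the authors' deposited table. For Chac1 the 95% interval ran from -1.28 to 0.25, which includes no change as well as lower levels. Of 11 endothelial marker loci 7 were higher in LsATF4-KO with DMSO, and their summed FPKM was 224 against 149 in wild type, from the authors' deposited table. Of 11 stellate cell marker loci 4 were higher and 0 lower, with a median log2 difference of 0.35 and summed FPKM of 274 against 245 in wild type, from the authors' deposited table. Their part in the result was not tested.

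Rescaling moved the balance of calls over all loci as well. Of the calls between LsATF4-KO and wild type with tunicamycin, 63.0% were higher in the authors' deposited table and 72.2 to 80.5% under the 3 rescalings. The corresponding shares were 55.0% and 42.2 to 66.9% for tunicamycin in LsATF4-KO. They were 48.7% and 40.8 to 68.0% for tunicamycin in wild type. With DMSO they were 48.7% and 76.2 to 91.9% for LsATF4-KO against wild type.

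**Figure D1:**
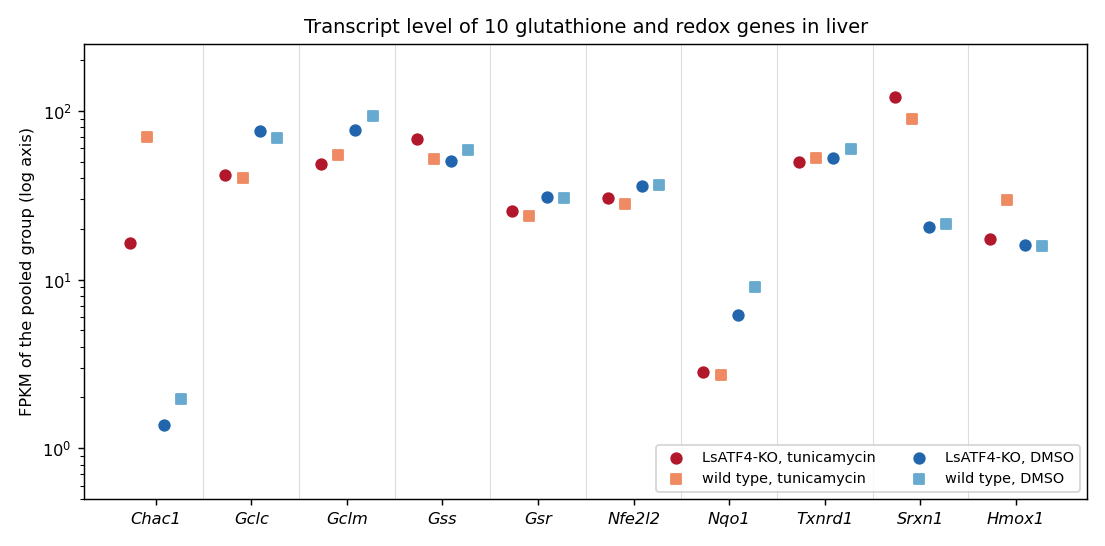
FPKM of the 10 members (log axis) in the 4 groups, each point the authors' pooled value of a group. Chac1 spreads over the widest range on the log axis, 1.38 to 70.5 FPKM. Srxn1 and Nqo1 follow, with a highest over lowest group of 5.92 and 3.32, while Txnrd1, Gsr and Nfe2l2 are nearly level.

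Chac1, the glutathione-degrading enzyme (mm9 chr2, 119176978 to 119180062), had 16.4 FPKM in LsATF4-KO and 70.5 in wild type with tunicamycin, and 1.38 and 1.96 with DMSO, in the authors' deposited table. It was the lowest of the 10 members in both DMSO groups. Among the members it ranked 9 of 10 in LsATF4-KO livers with tunicamycin and 2 of 10 in wild-type livers with tunicamycin. The rise was 12.0-fold in LsATF4-KO (log2 3.58, SE 0.33) and 36.0-fold in wild type (log2 5.17, SE 0.29), each with q 0.000396, the smallest value in the authors' deposited table. Between genotypes under tunicamycin the log2 difference was -2.10 (SE 0.21, q 0.000396) in the authors' deposited table. The responses differed by -1.59 (SE 0.44), LsATF4-KO minus wild type, with an adjusted p of 0.0382 over 14510 loci, of which 1.01% passed. That call was lost when the deposited test statistic was used without scaling to the p-values. With 1 FPKM added before taking logarithms the rises were 2.88 in LsATF4-KO and 4.59 in wild type.

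Both subunits of glutamate-cysteine ligase fell with tunicamycin in both genotypes. Gclc (mm9 chr9, 77602342 to 77642296) had 41.7 FPKM with tunicamycin and 75.7 with DMSO in LsATF4-KO, and 40.2 and 69.3 in wild type, in the authors' deposited table. Its fall was -0.86 (SE 0.20, q 0.000747) in LsATF4-KO and -0.78 (SE 0.20, q 0.000396) in wild type, on the log2 scale of the authors' deposited table. Gclm (mm9 chr3, 121948455 to 121973687) had 48.5 FPKM with tunicamycin and 76.9 with DMSO in LsATF4-KO, and 54.8 and 93.4 in wild type, in the authors' deposited table. The log2 changes of Gclm were -0.67 (SE 0.22, q 0.00846) in LsATF4-KO and -0.77 (SE 0.22, q 0.0023) in wild type, by the authors' deposited table. Neither subunit was called between genotypes, and the 95% interval of the difference in responses was -0.62 to 0.47 for Gclc and -0.50 to 0.70 for Gclm. As a ratio of levels, Gclm over Gclc was 1.16 and 1.36 with tunicamycin and 1.02 and 1.35 with DMSO, in LsATF4-KO and wild type each time.

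The synthetase Gss (mm9 chr2, 155388914 to 155418546), which completes glutathione, had 68.5 FPKM in LsATF4-KO and 51.7 in wild type with tunicamycin, and 50.4 and 58.4 with DMSO, in the authors' deposited table. LsATF4-KO livers with tunicamycin held the highest value and LsATF4-KO livers with DMSO the lowest. No comparison of Gss was called, with q 0.107 between genotypes under tunicamycin (log2 0.41, SE 0.19) and q 0.0774 for the LsATF4-KO response (log2 0.44, SE 0.19) in the authors' deposited table. The level of Chac1 relative to Gclc, a description of a degrading against a making enzyme per transcript length, was 39.4% in LsATF4-KO and 175% in wild type with tunicamycin. With DMSO it was 1.82% and 2.83%.

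Glutathione reductase, Gsr (mm9 chr8, 34762802 to 34808634), had 25.5 and 23.7 FPKM with tunicamycin in LsATF4-KO and wild type, and 30.9 and 30.6 with DMSO, in the authors' deposited table. Nfe2l2 (mm9 chr2, 75513576 to 75542698), the transcript of NRF2 itself, had 30.3 and 28.2 FPKM with tunicamycin and 35.8 and 36.4 with DMSO, in the same order and table of the authors' deposited values. Neither was called for tunicamycin in either genotype, at q 0.174 for Gsr and 0.160 for Nfe2l2 in wild type in the authors' deposited table. NRF2 is controlled mainly at the protein level, which these data do not measure.

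The members that NRF2 is known to drive went in different directions. Nqo1, a quinone reductase often used as a marker of NRF2 activity (mm9 chr8, 109911287 to 109927152), had 2.81 FPKM with tunicamycin and 6.20 with DMSO in LsATF4-KO, and 2.73 and 9.07 in wild type, in the authors' deposited table. Its falls were -1.14 (SE 0.31, q 0.00369) in LsATF4-KO and -1.73 (SE 0.30, q 0.000396) in wild type, the largest fall among the members in both genotypes of the authors' deposited table. The responses of Nqo1 differed by 0.59 (SE 0.43), LsATF4-KO minus wild type, which did not pass (adjusted p 1.00). Srxn1, sulfiredoxin, which repairs over-oxidised peroxiredoxins (mm9 chr2, 151931236 to 151939798), went the other way. It had 122 FPKM with tunicamycin and 20.6 with DMSO in LsATF4-KO, and 90.2 and 21.3 in wild type, in the authors' deposited table. The rise was 5.92-fold in LsATF4-KO (log2 2.56, SE 0.21) and 4.24-fold in wild type (log2 2.09, SE 0.20), with q 0.000396 for each in the authors' deposited table. With tunicamycin Srxn1 was the most abundant of the 10 members in both genotypes.

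Txnrd1, cytosolic thioredoxin reductase (mm9 chr10, 82296696 to 82360469), was the steadiest member, at 50.2 and 52.7 FPKM with tunicamycin and 53.0 and 59.8 with DMSO in LsATF4-KO and wild type, in the authors' deposited table. No comparison of Txnrd1 was called. The 95% interval of its tunicamycin response was -0.46 to 0.30 on the log2 scale in LsATF4-KO and -0.57 to 0.20 in wild type, so changes of that size remain possible.

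Hmox1, heme oxygenase, which opens heme to biliverdin (mm9 chr8, 77617517 to 77624492), had 17.5 FPKM in LsATF4-KO and 29.8 in wild type with tunicamycin, and 16.1 and 15.9 with DMSO, in the authors' deposited table. Wild type with tunicamycin stood above the other 3 groups, which lay between 15.9 and 17.5. The log2 change with tunicamycin was 0.12 (SE 0.21, q 0.778, not called) in LsATF4-KO and 0.91 (SE 0.21, q 0.000396) in wild type in the authors' deposited table. Between genotypes under tunicamycin it was -0.77 (SE 0.20, q 0.00108) in the authors' deposited table. The difference of the responses themselves was -0.79 (SE 0.30) and did not pass over all loci (adjusted p 0.338), so a call in 1 genotype only is not shown to be a difference between them. Macrophages, which take up red cells, also express Hmox1. Of 15 macrophage and Kupffer cell marker loci tested, Cuffdiff called 0 between genotypes under tunicamycin, against 5.92% of all tested loci. A count of 0 lies near that share, and unadjusted p was under 0.05 for 0 of these marker loci. Their summed FPKM was 385 in LsATF4-KO and 400 in wild type with tunicamycin, and 493 and 471 with DMSO, from the authors' deposited table, with none listed at 0. The part of macrophages in the Hmox1 result was not tested.

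**Figure D2:**
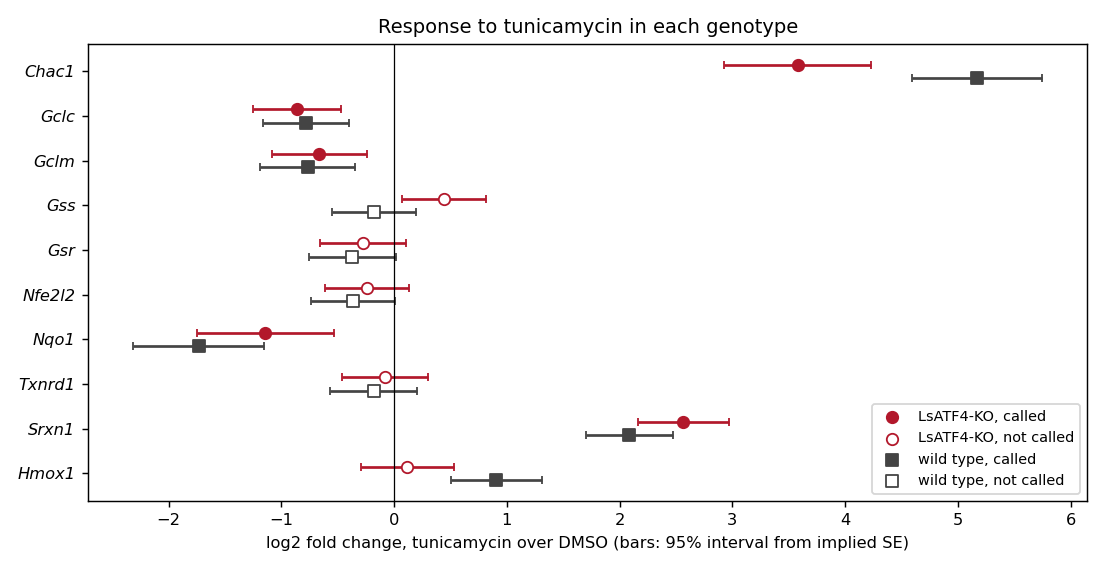
Log2 fold change of tunicamycin over DMSO for the 10 members in LsATF4-KO (circles) and wild type (squares), with 95% intervals from the derived SE and filled symbols for called loci. Chac1 reached 3.58 in LsATF4-KO and 5.17 in wild type, while the 2 symbols of Gclc and of Gclm lie close together.

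**Figure D3:**
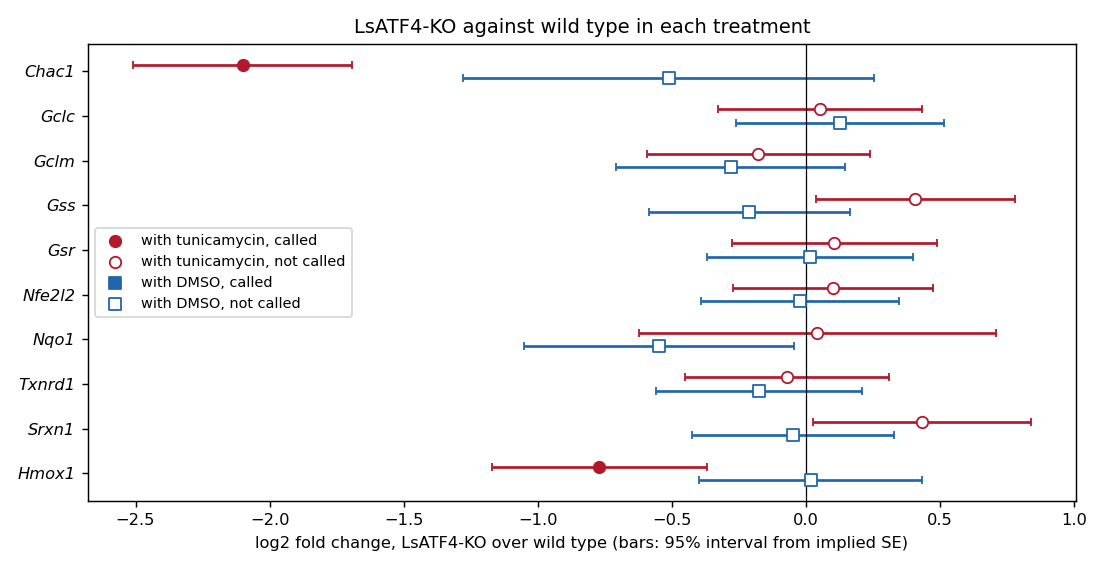
Log2 fold change of LsATF4-KO over wild type for the 10 members with tunicamycin (circles) and with DMSO (squares), with 95% intervals from the derived SE and filled symbols for called loci. Chac1 (-2.10) and Hmox1 (-0.77) under tunicamycin are the 2 filled symbols.

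Genes around the members were taken from 7 lists of 150 genes, of which 149 matched a locus. Counts are over loci with a valid test in the authors' deposited table. Some of these loci carry several names, such as Ggt6 with Mybbp1a and Mafg with Sirt7, and their calls cannot be credited to 1 gene. Among enzymes that use glutathione, 11 of 23 fell and 1 rose with tunicamycin in LsATF4-KO, and 14 of 23 fell and 0 rose in wild type, in the authors' deposited table. Over all tested loci 14.8% fell in LsATF4-KO and 19.0% in wild type, and 18.1% rose in each. The median log2 change of the list was -0.46 in LsATF4-KO and -0.80 in wild type. Hepatocyte markers were lower with tunicamycin as well, with 4 of 9 tested loci called in LsATF4-KO (median -0.82) and 3 of 9 in wild type (median -0.66), in the authors' deposited table. Their part in the counts of this and the other lists was not tested. Gsta3, a glutathione S-transferase, was at -1.45 in both genotypes, and the glutaredoxin Glrx at -1.92 in LsATF4-KO and -2.39 in wild type, in the authors' deposited table. Gpx3, a secreted glutathione peroxidase, was the 1 riser in LsATF4-KO, at 20.7 FPKM with tunicamycin against 3.96 with DMSO in the authors' deposited table. Under tunicamycin Gpx3 was 2.13 higher in LsATF4-KO than in wild type, on the log2 scale of the authors' deposited table. That LsATF4-KO group had higher summed adrenal, muscle and fat markers, and their part in the Gpx3 result was not tested. Gsta2 (-0.76) and Gsto1 (-0.55) were lower there, in the authors' deposited table.

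Among genes of glutathione breakdown and transport, 4 rose and 3 fell of 14 in LsATF4-KO with tunicamycin, and 2 rose and 3 fell of 14 in wild type, in the authors' deposited table. Over all tested loci 18.1% rose in each genotype and 14.8% fell in LsATF4-KO and 19.0% in wild type. The counts of this small list lie near that background in both genotypes. Chac2, a constitutive relative of Chac1, fell in both genotypes, with log2 changes of -1.21 in LsATF4-KO and -1.58 in wild type in the authors' deposited table. Chac2 had 9.47 FPKM with tunicamycin against 22.0 with DMSO in LsATF4-KO, and 10.5 against 31.4 in wild type, in the authors' deposited table. The exporter Abcc4 rose by 2.15 in LsATF4-KO and 3.04 in wild type, and was -0.66 lower in LsATF4-KO under tunicamycin, in the authors' deposited table. Cysteine supply had 2 rises in each genotype, with 5 falls of 12 in LsATF4-KO and 4 of 13 in wild type, in the authors' deposited table, and the rises lie near the share over all loci. Under tunicamycin 5 of 13 were lower in LsATF4-KO and 1 higher, where 2.19% of all tested loci were lower and 3.73% higher, in the authors' deposited table. The lower ones were Slc7a11 and Cth, both named after their values were seen, and Slc3a2, Slc1a4 and Ahcy. Slc3a2, the heavy chain that carries the cystine transporter to the membrane, was at -0.62, the neutral amino acid carrier Slc1a4 at -0.67 and Ahcy of the methionine cycle at -0.63, while the glutamine carrier Slc1a5 was 0.79 higher, in the authors' deposited table.

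Thioredoxin, peroxiredoxin and superoxide genes fell at 7 of 21 in LsATF4-KO and 13 of 21 in wild type with tunicamycin, with 1 rise in each, in the authors' deposited table. Over all tested loci 14.8% fell in LsATF4-KO and 19.0% in wild type, and 18.1% rose in each. That rise was Sesn2, a stress-induced sestrin, at 1.14 in LsATF4-KO and 1.75 in wild type, and Prdx6 was at -1.29 and -1.45, in the authors' deposited table. Of 26 other NRF2 targets 9 fell and 2 rose in LsATF4-KO, and 15 fell and 2 rose in wild type, in the authors' deposited table. Carbonyl reductase Cbr1 was at -1.37 in LsATF4-KO and -1.97 in wild type in the authors' deposited table. Under tunicamycin Ephx1, microsomal epoxide hydrolase, was 0.91 higher in LsATF4-KO and the oxidative growth inhibitor Osgin1 was lower there (-0.62), in the authors' deposited table. With tunicamycin Osgin1 rose in wild type (0.60) and was not called in LsATF4-KO (-0.40), in the authors' deposited table. The medians of this list were -0.45 in LsATF4-KO and -0.63 in wild type, against 0.01 and -0.02 over all loci tested.

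Genes that control NRF2 were mixed, with 7 rises and 6 falls of 20 in LsATF4-KO and 7 rises and 2 falls of 20 in wild type with tunicamycin, in the authors' deposited table. All tested loci gave 18.1% rises in each genotype, with 14.8% falls in LsATF4-KO and 19.0% in wild type. The small MAF partner Mafk rose by 2.81 in LsATF4-KO and 3.36 in wild type, and the KEAP1-binding autophagy receptor Sqstm1 by 2.14 and 2.07, in the authors' deposited table. The ER ubiquitin ligase Syvn1, which can target NRF2, rose by 4.26 and 4.58 in the same order of the authors' deposited table. Under tunicamycin Cuffdiff called 0 of 19 tested loci of this list between genotypes, against 5.92% of all tested loci. A count of 0 lies near that share, and for 4 of the 19 the unadjusted p was under 0.05.

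Targets of ATF4 and CHOP, the group to which Chac1 belongs, rose at 17 of 24 in LsATF4-KO and 20 of 25 in wild type with tunicamycin, with 1 fall in each, in the authors' deposited table, where 18.1% of all tested loci rose in each genotype. Under tunicamycin 15 of 25 were lower in LsATF4-KO and 1 higher, where 2.19% of all tested loci were lower and 3.73% higher. The median of the list was -0.74 against -0.04 over all loci tested, in the authors' deposited table. Slc7a11, below 1 FPKM in both groups, and Cth are among the 15 and were also counted under cysteine supply. Of those named, asparagine synthetase Asns was at -2.57, the serine enzyme Psat1 at -2.30 and the proline enzyme Aldh18a1 at -1.91, beside -2.10 for Chac1, in the authors' deposited table. The death receptor Tnfrsf10b was the 1 that was higher, at 2.75, and it was also higher with DMSO (1.35), in the authors' deposited table. In wild type Tnfrsf10b lay below 1 FPKM, at 0.344 with tunicamycin and 0.906 with DMSO. With DMSO 5 list loci were called between genotypes, Tnfrsf10b higher and Atf3 (-1.29), Atf5 (-1.13), Prdx4 (-0.56) and Ahcy (-0.55) lower, in the authors' deposited table. Over all loci 2.86% were called there, and 1 list locus was called with q adjusted within that comparison alone, so the list count is not a result about these genes. Ddit3, which encodes CHOP, reached 2066 FPKM in LsATF4-KO and 2385 in wild type with tunicamycin in the authors' deposited table.

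**Figure D4:**
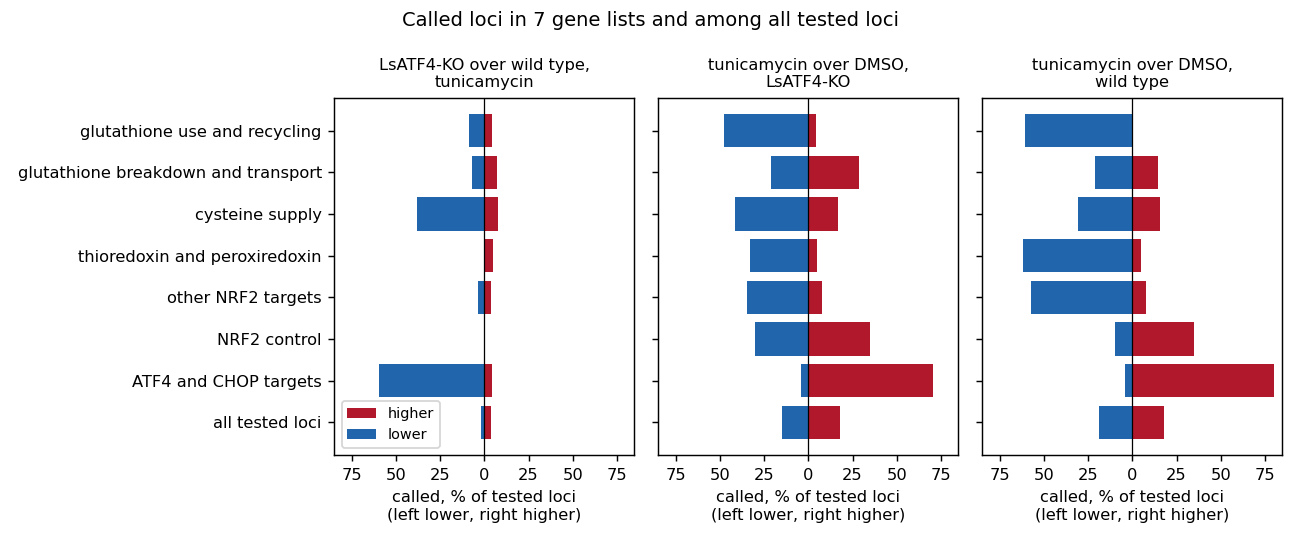
Percent of tested loci called higher (right, red) and lower (left, blue) in 7 gene lists and among all tested loci, for LsATF4-KO over wild type with tunicamycin and for tunicamycin over DMSO in LsATF4-KO and in wild type. The bars of glutathione use, thioredoxin and other NRF2 targets point mainly to lower and that of ATF4 and CHOP targets to higher with tunicamycin, where all tested loci were 18.1% higher in each genotype.

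The loci with the most similar pattern were sought among 8416 named loci with at least 5 FPKM in the highest group, by Euclidean distance of log2 FPKM over the 4 groups, each profile centred on its own mean. For Chac1 they were Far1, a fatty acyl-CoA reductase (distance 0.53), the mitochondrial folate enzyme Mthfd2 (0.59) and Fibin (0.73). Far1 had 14.0 and 50.3 FPKM with tunicamycin in LsATF4-KO and wild type, and 1.27 and 1.13 with DMSO, in the authors' deposited table. For Srxn1 the nearest were Anxa2 (0.13), Insc (0.19) and Gmds (0.24), and for Hmox1 they were Ralgapa2 (0.13), Coro7 (0.17) and 4921524J17Rik (0.18). For the nearly level members the distances were smaller, for example 0.01 between Txnrd1 and Ly86 and 0.01 between Nfe2l2 and Pisd. Likeness over 4 pooled values is a description, and many loci share such shapes.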

How the data were processed

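Poly(A) RNA of livers was sequenced in 12 libraries (4 groups of 3). Per the submitters' processing notes, bcl2fastq, TopHat2 2.0.4, Cufflinks and Cuffdiff were used with build mm9. No source used here gives the annotation or the filters. The table the authors deposited holds FPKM per locus and group, with libraries pooled, and for each of 6 comparisons of groups a log2 fold change, a test score (the Cuffdiff statistic), a q-value and a p-value. Per-library values were not analysed here, so no library could be left out.

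The deposited q equalled a Benjamini-Hochberg adjustment over 90828 tests within 5.29e-07. Starts in the table count from 0 and are printed counting from 1. Where several loci held a symbol, one bearing no other symbol was preferred, then the most abundant. SE was the size of the log2 fold change over the test statistic times 1.73 or 1.74 per comparison, the factor that matched the deposited p. The difference of responses was tested two-sided as a normal value and adjusted by Benjamini-Hochberg over 14510 loci. A simulation of the procedure drew its noise from the same derived SE, so it could not check their scaling to the deposited p. Alternatives were other q rules, fold and FPKM minimums, a pseudocount of 1 and 3 rescalings. From each list, up to 4 called genes with the largest fold change and at least 1 FPKM per comparison could be named. The members, lists and tests were chosen with earlier results of these data known. The tools were scipy 1.17.1, pandas 2.3.3, matplotlib 3.10.9 and numpy 2.4.6 under Python 3.11.15.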

Additional observations from a re-analysis of the deposited data

Results flagged for a closer look

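Chac1 was picked out because its response to tunicamycin differed between genotypes, by -1.59 (LsATF4-KO minus wild type, log2 scale, SE 0.44, adjusted p 0.0382 over all loci). The same held for 4 genes named from the lists. The proline enzyme Aldh18a1 differed by -2.20 (adjusted p 0.00131), the serine enzyme Psat1 by -2.10 (adjusted p 0.0499) and Osgin1 by -1.0 (adjusted p 0.0385). With DMSO Aldh18a1 (0.481 FPKM in LsATF4-KO, 0.392 in wild type) and Psat1 (0.286 and 0.328) lay below 1 FPKM. The responses of these genes are therefore ratios to very low levels. The glutathione peroxidase Gpx3 differed by 2.0 (adjusted p 0.000474). The LsATF4-KO response rests on the DMSO group of its own lane, and the effects of lane and genotype cannot be told apart there. Within lane 4, under tunicamycin, LsATF4-KO against wild type was -2.10 for Chac1, -1.91 for Aldh18a1, -2.30 for Psat1, -0.62 for Osgin1 and 2.13 for Gpx3 in the authors' deposited table. That LsATF4-KO group had higher summed adrenal, muscle and fat markers, and their part in these values was not tested.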

How the results depend on the processing

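No paired analysis was possible because the table pools the libraries of a group and no label pairs them, and leaving out replicates could not be run for the same reason. Of the counts recomputed under an alternative, 83 stayed within 1.5 times the count reported and 15 did not. Some of the 83 could not change. Every member had a locus of its name alone and at least 1 FPKM in each group, and counts of 0 could not fall. No called member reversed its direction, but no setting run could reverse one. The smallest called change, -0.67 for Gclm with tunicamycin in LsATF4-KO, was larger in size than any rescaling shift, and a pseudocount keeps signs. Requiring at least 2-fold left 1 member lower in each tunicamycin response and 1 lower between genotypes under tunicamycin, and left 55, 45, 14 and 3 called list loci for tunicamycin in wild type, tunicamycin in LsATF4-KO, and genotype with tunicamycin and with DMSO. For genotype with DMSO the called list loci numbered 1 with q within the comparison, 3 with q under 0.01, 13 with equal totals and 8 with equal upper quartiles. The rescaled tests were added after seeing the data. They gave 5 members lower in wild type with tunicamycin (equal upper quartiles) and 2 (equal totals) or 1 (equal upper quartiles) higher in LsATF4-KO under tunicamycin. Equal totals shifted every log2 change by 0.14 to 0.28, depending on the comparison, and equal upper quartiles by -0.17 to 0.11. With the unscaled test statistic as SE, 0 members differed in response against 1. The cause was not tested. Pooling hides the spread between libraries and the depth.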

Other observations

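The cystine transporter Slc7a11, chosen after its values were seen, lay below 1 FPKM in every group, at 0.109 in LsATF4-KO and 0.590 in wild type with tunicamycin, and at 0.00911 and 0.00813 with DMSO, in the authors' deposited table. Between genotypes under tunicamycin it was lower in LsATF4-KO (log2 -2.44, q 0.000396) in the authors' deposited table. In wild type its tunicamycin response was not called (log2 6.18, q 0.0534), and in LsATF4-KO it was not tested, in the authors' deposited table.

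Of the 10 members, 4 lie on chromosome 2 (Chac1, Gss, Nfe2l2 and Srxn1) and 3 on chromosome 8 (Gsr, Hmox1 and Nqo1). Those on chromosome 2 span both the strongest rises and values without a call.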
